A study of Mus musculus with 4 samples.

Results

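The SOX transcription factors are DNA-binding proteins that share the HMG box of Sry and set cell fate in many embryonic tissues. The 10 SOX genes described here were Sox2, Sox4, Sox5, Sox6, Sox8, Sox9, Sox10, Sox11, Sox17 and Sox18. They were found by the gene name that the array design gives each probe, and 28 of the 41174 gene probes on the array carried one of these names. Their mRNA was measured in mouse embryonic fibroblasts (MEFs), connective-tissue cells grown from whole embryos, on 4 microarrays of 2 colours. The RNA of cells lacking cyclin G1 (G1KO, genotype CycG1-/-) was compared with that of a CycG1+/+ culture (WT), and the RNA of cells lacking cyclin G2 (G2KO, genotype CycG2-/-) with that of a CycG2+/+ culture, to ask which transcripts depend on these cyclins. All cultures were labelled C57BL/6J, except that 1 field of the labels gives C57BL/7J for the G2KO pair, and all were in logarithmic growth with no further treatment. The G1KO allele had lost every coding exon of Ccng1, as the study's methods state, and the cells came from mid-gestation embryos.

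Each comparison had 1 knockout culture and 1 WT culture, which shared 2 arrays with the dyes Cy5 and Cy3 exchanged. No difference given here therefore has a biological replicate, no test was possible, and each ± value is a technical SD over the 2 arrays that share both cultures. Values are log2 ratios of knockout over WT. A probe was tested where it was well above background on both arrays in at least 1 genotype, and it was called where the log2 ratio was at least 1 (2-fold), in the same direction, on each array. Ccng1, the gene deleted in G1KO, had log2 ratios of -6.67 ± 0.13 and -4.96 ± 0.08 at its 2 probes in the G1KO comparison. The G2KO comparison gave 0.09 ± 0.27 at the Ccng2 probe, where the mRNA was thus not reduced. Whether that probe lies in the deleted part of Ccng2 was not determined. The study genotyped its G2KO MEFs by RT-PCR with Ccng2 primers, but does not say whether the culture used here was among them. Ccng1 was called higher in the G2KO pair, at 2.67 ± 0.03 and 2.49 ± 0.04. The knockout RNA of that pair is called the RNA labelled G2KO, and every direction given for it rests on the label. Xist, the RNA that coats the inactive X, had log2 ratios of 7.54 ± 0.43 (G1KO) and 7.24 ± 0.46 (G2KO) at its brightest probe, and Eif2s3y of the Y chromosome was at least 82.3-fold and at least 51.2-fold lower. Knockout and sex-linked transcripts thus differed together in both pairs, and their parts in any difference cannot be told apart. All 4 arrays lay on 1 slide, and between 25366 and 27757 of 43379 gene spots per channel were well above background.

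SOX proteins bend DNA at short sites and act with partner factors, and the family falls into groups of close relatives. SOX2 keeps neural progenitors and pluripotent cells undifferentiated. SOX9, with SOX5 and SOX6, drives the formation of cartilage, and SOX8, SOX9 and SOX10 act in the neural crest and its derivatives. SOX4 and SOX11 act in neuronal and mesenchymal progenitors, and SOX17 and SOX18 in endothelium, SOX17 also in endoderm. Fibroblasts grown from embryos can hold progeny of several of these tissues.

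Probes of 4 genes were called in either comparison (Sox2, Sox6, Sox9 and Sox11), and the promoters of 3 of them are shown, because SOX genes are known to be regulated in part by SOX proteins. RefSeq promoters (GRCm38.p6) were held for 6 of the 10 genes, in 11 windows, and the sequences of Sox9, Sox10, Sox17 and Sox18 are not shown. Only the 250 bases before the start of transcription were used. Capitals mark AACAAT or ACAAAG, letters that the HMG box is known to bind, on either strand (ATTGTT and CTTTGT). The window of Sox2 lies on the plus strand at chr3:34649745-34649994, that of Sox11 on the minus strand at chr12:27342719-27342968, and the window shown for Sox6, of its 6 windows the one with the most matches, on the minus strand at chr7:115824711-115824960.
Sox2: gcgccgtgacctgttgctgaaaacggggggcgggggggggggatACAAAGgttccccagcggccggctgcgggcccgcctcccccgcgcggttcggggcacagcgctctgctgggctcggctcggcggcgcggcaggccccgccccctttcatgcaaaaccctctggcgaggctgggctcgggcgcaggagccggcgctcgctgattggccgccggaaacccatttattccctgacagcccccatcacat
Sox11: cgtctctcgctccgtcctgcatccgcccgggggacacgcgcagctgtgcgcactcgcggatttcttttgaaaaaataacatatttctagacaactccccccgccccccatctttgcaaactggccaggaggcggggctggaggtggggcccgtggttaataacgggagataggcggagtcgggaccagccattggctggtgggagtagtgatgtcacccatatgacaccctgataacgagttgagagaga
Sox6: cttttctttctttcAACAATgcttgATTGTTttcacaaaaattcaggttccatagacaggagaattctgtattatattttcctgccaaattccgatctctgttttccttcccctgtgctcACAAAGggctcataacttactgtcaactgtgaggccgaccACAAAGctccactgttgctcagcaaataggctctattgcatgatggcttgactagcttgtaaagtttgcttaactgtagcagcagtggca
The Sox2 window held 1 match, to ACAAAG, and the Sox6 window held 4 matches, 2 to each motif, none of which overlapped. The Sox11 window held 0 matches. Of all 32851 windows of this length, 9.42% held AACAAT, 16.5% held ACAAAG and 24.04% held either, so that a match was common. The Sox2 window had a G and C content of 72% with 27 CG pairs and the Sox11 window 58% with 17 CG pairs, against medians of 52.4% and 6 over all windows. The Sox6 window had 41.6% and 2 CG pairs. A match describes the letters and not a bound site.

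The 10 genes fell into those that were read and those that were not. Of 224 readings (28 probes, 2 arrays, 2 RNAs per array, 2 comparisons), 100 were well above background. Sox11 was above background in 48 of 48 readings and Sox4 in 8 of 8, in every RNA. Sox9 was above it in 19 of 24, Sox6 in 10 of 40 and Sox2 in 4 of 8. The remaining genes were near background, with 5 of 16 readings of Sox10, 3 of 24 of Sox5, 2 of 16 of Sox8, 1 of 32 of Sox17 and 0 of 8 of Sox18. Fewer cells of a type and less RNA per cell cannot be told apart in RNA of whole cultures.

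**Figure D1:**
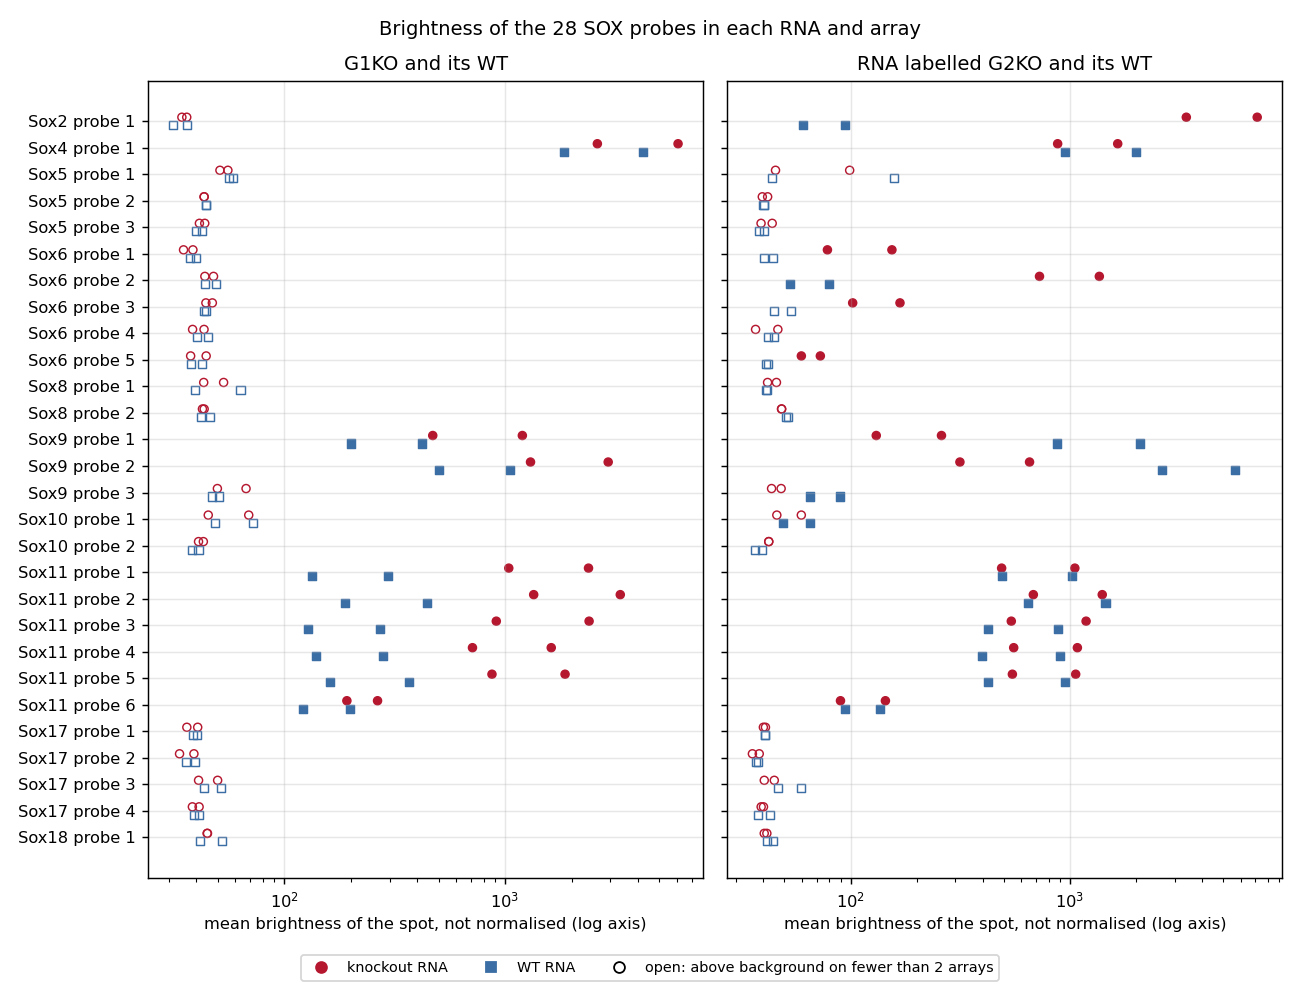
Brightness of each of the 28 SOX probes on every array, not normalised, on a log axis, with knockout RNA as circles and WT RNA as squares and the G1KO pair at the left. Filled symbols are RNAs well above background on both arrays. Sox4 and Sox11 were bright in all 4 RNAs, whereas the Sox2 probe reached 7132 in the RNA labelled G2KO and stayed between 31.5 and 36.3 in the G1KO pair.

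In the G1KO comparison 9 of the 28 probes, of 3 genes, were tested, and 7 of them were called higher and 0 lower. Over all 25541 probes tested, 1.99% were called higher and 3.8% lower. The 7 probes belonged to 2 genes, Sox11 with 5 and Sox9 with 2, so that the count by gene was 2 of 3. The median log2 ratio of the 9 probes was 2.20, against 0.00 for all probes tested. In the G2KO comparison 16 probes of 6 genes were tested, of which 3 were called higher (Sox2 with 1 probe and Sox6 with 2), 2 lower (both Sox9) and 11 were not called. Over all 25430 probes tested there, 2.31% were called higher and 4.06% lower. The median of the 16 probes was 0.14, against -0.01 for all probes tested. Of the 28 probes, 9 were tested in both comparisons, 7 in the G2KO comparison alone and 12 in neither. Probes of 1 gene read the same transcripts and are not independent.

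**Figure D2:**
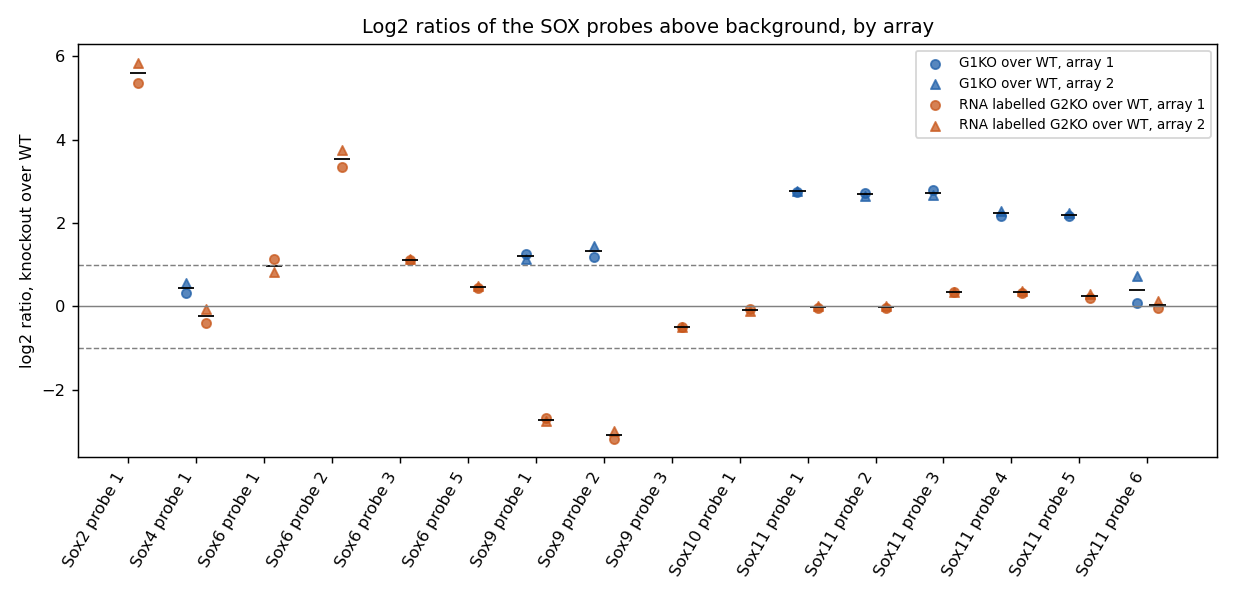
Log2 ratio of knockout over WT for the 16 SOX probes tested, with array 1 as circles, array 2 as triangles, their mean as a black bar and the calling thresholds of 1 and -1 as dashed lines. Sox11 was higher in G1KO at 5 of 6 probes, and Sox2 and Sox6 were higher in the RNA labelled G2KO. Sox9 probes 1 and 2 lay above 1 in G1KO and below -2 in the RNA labelled G2KO. Sox9 probe 3, tested in the G2KO comparison alone, lay at -0.50.

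Sox2 showed the widest difference of the 10 genes. SOX2 marks neural stem cells and the early embryo. Its single probe (chromosome 3, 34843400 to 34843459, plus strand, on the array's build mm8, as for all probes) had a brightness of 7132 in Cy5 and 3390 in Cy3 in the RNA labelled G2KO. In the WT of that pair the same probe had 60.8 in Cy3 and 94.3 in Cy5, which was still well above background on both arrays. Both readings of the RNA labelled G2KO were above both of its WT. The log2 ratios were 5.35 and 5.84 on the arrays, 5.59 ± 0.35 in the mean, a 48.2-fold difference. In the G1KO pair the probe had 36.3 and 34.5 in G1KO and 36.3 and 31.5 in WT, and none of the 4 readings was above background, so that no ratio is given. The size of the difference rests on the background correction at the dim WT reading, and it was 7.21 in the scanner's own log ratio. Sox2 lies inside Sox2ot, a long noncoding transcript of the same strand. Of the 3 probes of Sox2ot, named here after their values were seen, 1 (34869395 to 34869454) was called higher in the RNA labelled G2KO, at least 2.25-fold, with its WT below background, and the other 2 were at background in all 4 RNAs. The array does not tell whether a longer transcript contributes to the Sox2 reading.

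Sox6, a partner of SOX9 in cartilage that also acts in muscle and in red blood cell precursors, was the other gene read in the RNA labelled G2KO alone among the knockouts. Its 5 probes lie on the minus strand of chromosome 7 and are numbered from the 3' end. Probe 2 (115266015 to 115266074) had a brightness of 1361 in Cy5 and 726 in Cy3 in the RNA labelled G2KO, and 53.0 and 79.9 in the WT. Its log2 ratios of 3.33 and 3.75 gave a mean of 3.54 ± 0.30, and both knockout readings were above both WT readings. Probe 3 (115268127 to 115268186) had a log2 ratio of 1.12 ± 0.02 with the WT at background on both arrays, so that Sox6 was at least 2.17-fold higher there. Probe 1 (115263053 to 115263112) had 1.13 and 0.82 and was not called, with a bound of at least 1.96-fold. Far upstream, probe 5 (115332845 to 115332904) had 0.47 ± 0.03 and a bound of at least 1.32-fold, and probe 4 (115331109 to 115331168) was at background in every RNA. The 5 probes thus ran from -0.01 to 3.54. Probes 1, 3 and 5 were tested only through the knockout RNA, their WT being at background, so their direction adds nothing to that of probe 2. The call at probe 3 was lost where both genotypes had to be above background and at the 4-fold threshold. The dim probes depend on the processing, and in the scanner's own log ratio probes 1, 3 and 5 had 4.80, 3.87 and 3.52, each past 2-fold. The size at probe 2 depends on it too, with 5.70 in the authors' series table of log ratios against 3.54 here. Probe 1 was also past 2-fold on array 1 alone (1.13). No probe of Sox6 was above background in either RNA of the G1KO pair, where brightness ran from 35.1 to 49.3.

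Sox9, the master regulator of cartilage, was higher than WT in 1 comparison and lower in the other. Its 3 probes lie on the plus strand of chromosome 11, and probe 1, the 3'-most (112603585 to 112603644), was printed 10 times on each array. Probe 1 had a brightness of 1198 and 471 in G1KO against 201 and 422 in its WT, in Cy5 and Cy3 for G1KO and the reverse for the WT. Its log2 ratio was 1.20 ± 0.07 (1.25 and 1.15). Probe 2 (112601784 to 112601843) had a log2 ratio of 1.32 ± 0.19 (1.18 and 1.45). After centring each array on its median in place of loess the means were 1.26 and 1.36, but not every array reached 2-fold and neither probe was called. In the RNA labelled G2KO, probe 1 had 260 and 131 against 870 and 2082 in the WT, a log2 ratio of -2.71 ± 0.06. Probe 2 had 654 and 315 against 2633 and 5649, a log2 ratio of -3.08 ± 0.12, which is 8.45-fold lower. Within each dye the single WT reading was above the single knockout reading at both probes. Probe 3 (112599086 to 112599938) was dim in all RNAs. It was not tested in the G1KO comparison, and its bound in the G2KO comparison, at least 1.41-fold lower than WT, was under the threshold. In the scanner's own log ratio that value was -2.98.

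Sox11, a factor of neuronal and mesenchymal progenitors, was higher in G1KO and differed little in the RNA labelled G2KO. Its 6 probes lie on the minus strand of chromosome 12, the most upstream 7409 bases from the 3'-most, and all were well above background in all 4 RNAs. Probe 2 (27921466 to 27921525) was the brightest, with 3324 and 1348 in G1KO against 188 and 444 in its WT. In the other pair it had 1403 and 681 in the RNA labelled G2KO against 642 and 1452 in the WT. In the G1KO comparison probes 1 to 5, from the 3' end, had log2 ratios of 2.76, 2.69, 2.72, 2.23 and 2.20, each with an SD between arrays of 0.08 or less. Probe 1 (27920944 to 27921003) was thus 6.77-fold higher. Probe 6 (27928353 to 27928412), the most upstream, had 0.07 and 0.73, a mean of 0.40 ± 0.46, and was not called. It was the dimmest probe of the gene, with 265 and 192 in G1KO against 122 and 199 in its WT. In the RNA labelled G2KO the 6 log2 ratios ran from -0.01 to 0.35 and none was called. The values of 0.35, 0.34 and 0.25 at probes 3 to 5 exceeded their SD between arrays, which was at most 0.06.

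**Figure D3:**
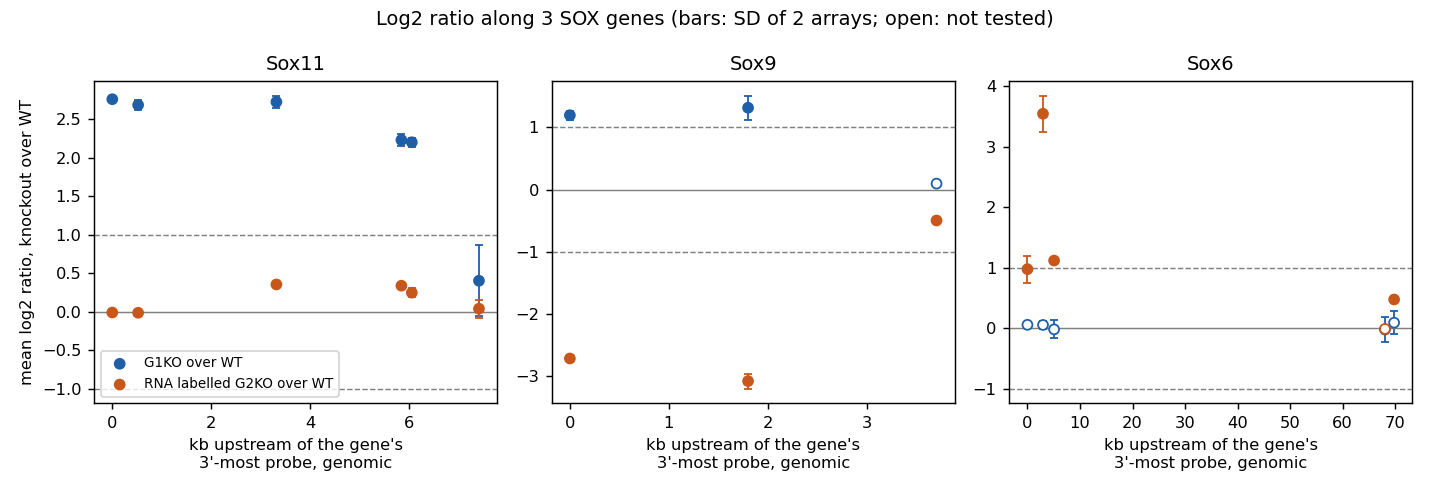
Mean log2 ratio of each probe of Sox11, Sox9 and Sox6 against its distance in kb upstream of the 3'-most probe of the gene, with bars for the SD of 2 arrays and open symbols for probes not tested. Probes 1 to 5 of Sox11 lay between 2.20 and 2.76 in G1KO and the most upstream probe at 0.40, and the probes of Sox6 that were read ranged from 0.47 to 3.54 in the RNA labelled G2KO.

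Sox4, the closest relative of Sox11 here, was bright in every RNA and was not called. Its single probe (chromosome 13, 28959662 to 28959721, minus strand) had a log2 ratio of 0.43 ± 0.17 in the G1KO comparison (0.31 and 0.55) and -0.23 ± 0.24 in the other (-0.40 and -0.06). Brightness was 6069 and 2618 in G1KO against 1840 and 4218 in its WT, and 1650 and 879 in the RNA labelled G2KO against 953 and 1990 in its WT.

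The other 5 genes gave no call. Sox5, which acts with Sox6 in cartilage, was not tested at any of its 3 probes on chromosome 6 (143790222 to 143790281, 143864240 to 143864299 and 144062082 to 144062141). Its mean log2 ratios ran from -0.14 to 0.16, and its highest brightness was 157, on 1 array at the 3'-most probe. Sox8, of the neural crest, had 2 probes on chromosome 17 (25293749 to 25293808 and 25296524 to 25296583) with a brightness of 39.6 to 63.5. Sox10, which specifies glia and melanocytes, had 2 probes on chromosome 15, and the one at 78982330 to 78982389 was tested in the G2KO comparison alone, at -0.08 ± 0.02. The other, at 78983708 to 78983767, was at background throughout. Sox17, of endoderm and endothelium, had 4 probes on chromosome 1 (4481503 to 4481562, 4481890 to 4481949 and 4485231 to 4485290 on the minus strand, and 4488752 to 4488811 on the plus strand), with a brightness of 33.6 to 59.5. Sox18, of vessels, had 1 probe on chromosome 2 (181599490 to 181599549) with 40.4 to 52.5. Local background around these probes was 24 to 44.5. Where these probes were at background the RNA was not detectable at this sensitivity, which does not show that it was absent.

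The levels of the genes read were set in order over the 4 RNAs after normalisation between arrays (Aquantile), as log2 levels. Levels of different pairs come from different arrays and have no swap that balances them. Sox9 probe 2 was highest in the WT of G2KO (12.03 ± 0.05), followed by G1KO (10.82 ± 0.06), the WT of G1KO (9.502 ± 0.13) and the RNA labelled G2KO (8.95 ± 0.07), and each neighbour in this order differed beyond its spread. The places of the first and the last rest on the G2KO label, and with it turned the knockout would hold the highest level and its WT the lowest. Probe 1 of Sox9 kept the order, with 10.46, 9.45, 8.26 and 7.74. Sox11 probe 2 was highest in G1KO (10.93 ± 0.06), equal within the spread in the WT of G2KO (10.04 ± 0.03) and the RNA labelled G2KO (10.03 ± 0.06), and lowest in the WT of G1KO (8.25, with an SD of 0.0009). Sox4 was highest in G1KO (11.85 ± 0.10) and in its WT (11.41 ± 0.07), and lower in the WT of G2KO (10.56 ± 0.07) and the RNA labelled G2KO (10.33 ± 0.16), with no overlap between neighbours. Sox2 had 12.34, with an SD of 0.0028, in the RNA labelled G2KO and 6.75 ± 0.35 in its WT, and Sox6 probe 2 had 10.06 ± 0.02 and 6.52 ± 0.28. Without the normalisation between arrays every one of these orders stayed as given.

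**Figure D4:**
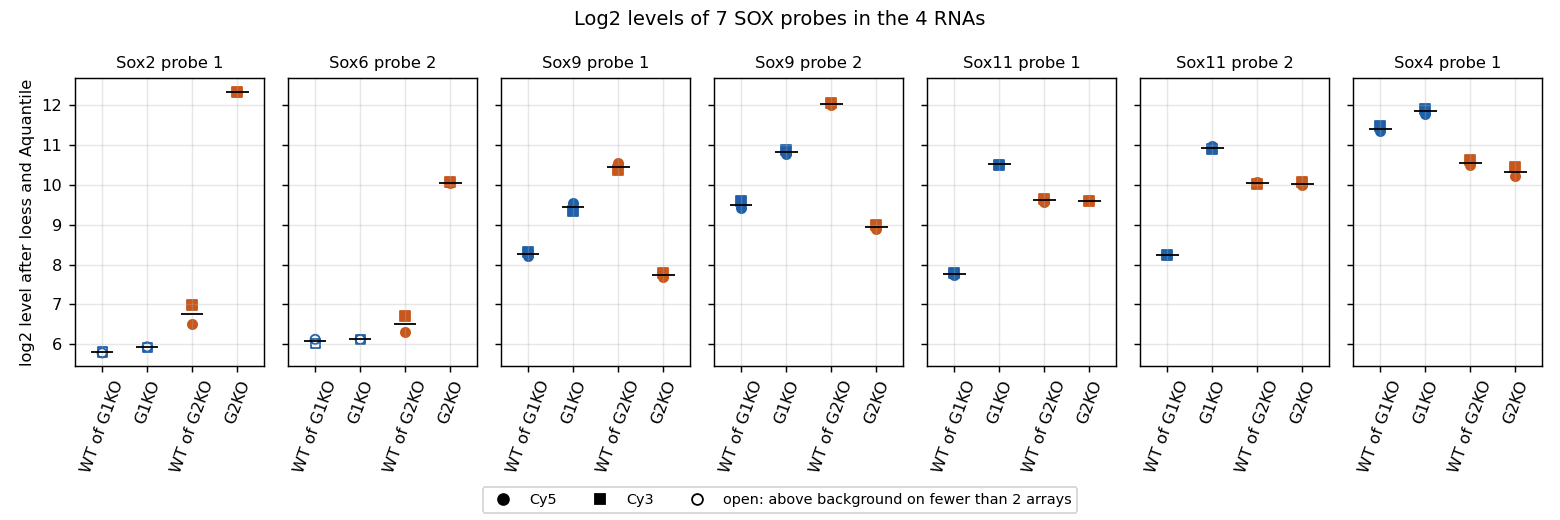
Log2 level of 7 SOX probes in the 4 RNAs after loess and Aquantile normalisation, with Cy5 as circles, Cy3 as squares, their mean as a black bar and open symbols for RNAs not above background on both arrays. The RNA labelled WT of the G2KO pair held the highest level of Sox9 and its knockout RNA the lowest, an order that turns with the label of that pair, and the WT of G1KO held the lowest level of Sox11 at the probes shown.

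The 2 cultures labelled WT differed from each other at the same genes. Sox9 was higher in the WT of G2KO than in the WT of G1KO by 2.20 and 2.53 on the log2 scale at probes 1 and 2, and Sox11 by 1.41 to 1.85 at probes 1 to 5. The dim probe 3 of Sox9 differed by 0.40 in the same direction. Probe 6 of Sox11 went the other way, with the WT of G1KO higher by 0.32. At 7 of the 13 SOX probes above background in either WT, every reading of the WT of G1KO was at least 2-fold lower than every reading of the WT of G2KO, and at 0 it was at least 2-fold higher. Over all 26124 probes so compared, 5.01% were lower and 5.32% higher. The median difference of the 13 probes was -1.41, against -0.01 for all. With the label of the G2KO pair turned, a comparison added after the data were seen, Sox9 would instead be lower than in the WT of G1KO, by 0.51 and 0.55, short of 2-fold. Sox11 would still be higher, by 1.66 to 2.06 at probes 1 to 5, but lower by 0.28 at probe 6. Of 14 SOX probes then counted, 8 would be lower in the WT of G1KO and 0 higher, against 4.42% and 6.61% of 25630 probes. The Sox2 probe and probes 1, 2, 3 and 5 of Sox6 were at background in the WT of G1KO. They were counted only through the RNA labelled G2KO and could only come out lower in that WT. Of the 8, those of Sox2 and of Sox6 (probes 2 and 3) therefore add nothing, and the rest were probes 1 to 5 of Sox11. As labelled, the differences between WT cultures reach the size of several of the knockout differences above, and a difference between a knockout and its WT cannot be told apart from a difference between cultures.

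Genes of the pathways in which the SOX factors act were taken from lists, 1 probe per gene (the brightest). Over all genes tested this way, 2.47% were called higher and 4.48% lower in the G1KO comparison (16534 genes), with a median log2 ratio of 0.00. In the G2KO comparison 2.73% were called higher and 4.84% lower (16488 genes), with a median of -0.02. The lists are small and were chosen with earlier results of these data known. Their counts are therefore no independent support, and nothing is called particular to them.

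Of 15 cartilage genes downstream of SOX9, SOX5 and SOX6, 10 were tested in the G2KO comparison, where Sox9 was lower and Sox6 higher, and 3 were called lower and 0 higher, with a median of -0.18. Col11a1, a fibrillar collagen chain of cartilage and of mesenchyme, had -5.23 ± 0.19. Its brightness was 968 and 345 in the RNA labelled G2KO against 13996 and 33379 in the WT. Col27a1 had -1.69 ± 0.08 and Col2a1, the main collagen of cartilage, -1.50 ± 0.02, the latter at 1 of its 2 tested probes and lost with median centring. In the G1KO comparison 9 were tested, 1 was called higher and 0 lower, with a median of -0.15. Col11a1 was the one, at 1.54 ± 0.16, a call lost with median centring, and Col2a1 had -0.89 ± 0.01. Acan, the large proteoglycan of cartilage, had 0.04 ± 0.12 and -0.13 ± 0.01 in the G1KO and G2KO comparisons.

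Of 12 neural progenitor genes of the SOX2 programme, 5 were tested in the G2KO comparison and 4 were called higher and 0 lower, with a median of 2.36. Nes, the intermediate filament nestin, had 3.37 ± 0.23, with 24410 and 10310 against 834 and 2505 in its WT. Pou3f3, a POU factor, had 2.69 ± 0.01, Notch1, a receptor that keeps progenitors undifferentiated, 2.36 ± 0.22, and Lhx2, a forebrain factor, 1.73 ± 0.02. Msi1, an RNA-binding protein of neural stem cells, had 0.05 ± 0.16. In the G1KO comparison, where Sox2 was at background, 5 were tested, 2 were called higher and 1 lower, with a median of -0.01. Nes had 2.34 ± 0.17 and Notch1 1.46 ± 0.18, and Zic1, a zinc-finger factor of the dorsal neural tube and of somites, -5.10 ± 0.20, with G1KO above background on 1 array alone. Of the 7 pluripotency genes on the array, 1 was tested in the G2KO comparison and not called (Utf1, -0.23 ± 0.06), so the partners Pou5f1 and Nanog were not read beside Sox2. In the G1KO comparison 2 were tested and Lefty1, a Nodal antagonist, was called lower at -1.06 ± 0.08, a call lost with median centring.

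Of 15 neural crest and glial genes of the SOX10 programme, 12 were tested in the G1KO comparison, 1 was called higher and 2 lower, with a median of -0.04. S100b, a calcium-binding protein of glia and of cartilage, had 2.60 ± 0.19, Mbp, a myelin protein, -2.40 ± 0.22, and Erbb3, the neuregulin receptor, -1.28 ± 0.17 at the 1 of its 5 probes that was read. In the G2KO comparison 10 were tested and 0 were called, with a median of -0.06. Of 7 neuronal genes downstream of SOX4 and SOX11, 3 were tested in the G1KO comparison, where Sox11 was higher, and Tead2, a partner of YAP and a target of both factors, was called higher at 1.43 ± 0.25, though not with median centring. Tubb3, the neuronal tubulin, had 0.23 ± 0.01. In the G2KO comparison 4 were tested and Map2, a microtubule protein of dendrites, was called lower at -1.24 ± 0.04, at 1 of its 3 tested probes and not with median centring. The medians were 0.23 and -0.72.

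Of 13 endothelial genes of the SOX17 and SOX18 programme, 5 were tested in the G1KO comparison and 3 in the other. Flt1, a VEGF receptor, was called higher in the first at 3.27 ± 0.09 and lower in the second at -1.42 ± 0.19, the second call being lost with median centring, and the medians were 0.06 and -0.67. Of 8 endoderm genes of the SOX17 programme, 4 were tested in the G1KO comparison, and Gata6, a GATA factor of endoderm and heart, was called lower at -1.49 ± 0.12, again not with median centring, with a median of -0.78. Foxa2 had -1.16 ± 0.25 there and was not called. In the G2KO comparison 3 were tested and 2 were called higher, with a median of 2.62. Foxa2, a forkhead factor of endoderm and of the floor plate of the neural tube, had 6.10 ± 0.18, with 11908 and 5865 against 65.5 and 138 in the WT. Both RNAs of the G1KO pair were bright for Foxa2 too, with 10015 and 4296 in G1KO and 9010 and 21562 in its WT. Gata6 had 2.62 ± 0.07, at 1 of its 2 tested probes, with 791 and 376 against 51.3 and 94.3 in the WT. In the G1KO pair Gata6 had 9714 and 3194 in G1KO and 9137 and 23916 in its WT. Of the WT cultures, that of the G2KO pair was thus the dim one for both genes. Sox17 itself was above background in 1 of 32 readings and was not tested in either comparison.

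Of 10 other Sox genes, 5 were tested in each comparison, 0 were called in G1KO and 1 was called higher in the RNA labelled G2KO, with medians of -0.16 and 0.18. That gene was Sox21, a relative of Sox2 in neural progenitors (chromosome 14, 117117711 to 117117770), which was at least 6.97-fold higher with its WT at background. Its other 2 probes were tested and not called, at 0.57 ± 0.04 and 0.08 ± 0.08. Sox13, of the group of Sox5 and Sox6, had 0.89 ± 0.09, short of the threshold. Sox12, the third relative of Sox4 and Sox11, had -0.21 ± 0.11 and 0.18 ± 0.19, and Sry on the Y chromosome was at background in all RNAs.

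**Figure D5:**
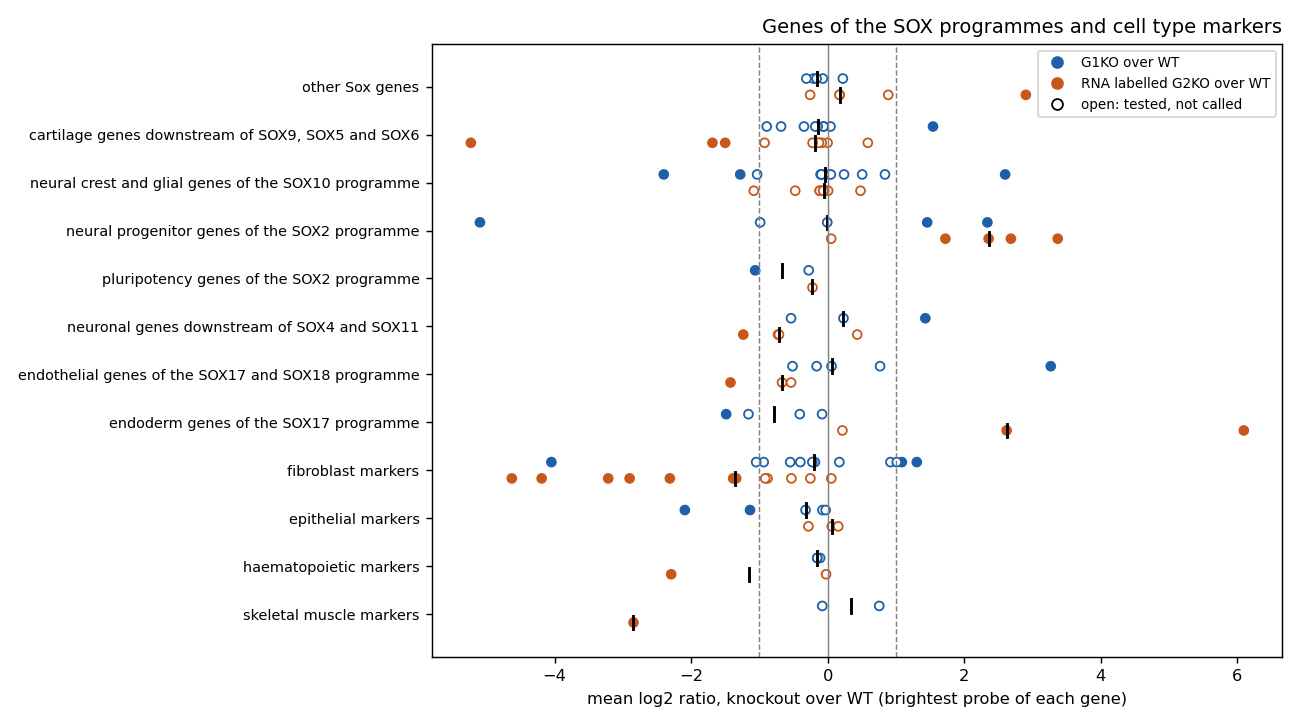
Mean log2 ratio of the brightest probe of each tested gene in the SOX programmes and in 4 lists of cell type markers, with filled symbols for genes called, black bars for the median of a list and dashed lines at 1 and -1. In the RNA labelled G2KO, 4 of 5 neural progenitor genes lay above 1 and 7 of 12 fibroblast markers were called lower. The lists were chosen with earlier results of these data known.

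Some markers of cell type differed as well, most of all the fibroblast markers in the G2KO comparison. All 12 fibroblast markers were above background in all 4 RNAs, as the label MEF requires. In the RNA labelled G2KO 7 of the 12 were called lower and 0 higher, with a median of -1.36, among them Pdgfra (-4.63 ± 0.09), Postn (-4.19 ± 0.07), Thy1 (-3.22 ± 0.18) and Col3a1 (-2.90 ± 0.14), each at its brightest probe. Pdgfra and Postn were called lower at 1 of their 2 tested probes each, Col3a1 at 2 of 3 and Thy1 at 2 of 2. With median centring 4 of the 7 calls were left, those of the 4 genes named. The summed linear level of the 12 was 322020 to 474035 on the arrays, against 857373 to 883213 in the WT. Such a sum is weighted to the brightest genes and does not describe the 12 alike. S100a4, a very bright one, had log2 ratios of 0.10 and -1.16 on the arrays there, and -0.42 and -1.67 in the G1KO comparison. In G1KO 1 was called lower (Dcn, -4.05 ± 0.12, at 1 of its 2 tested probes) and 2 higher (Lum, 1.31 ± 0.04, and Pdgfrb, 1.09 ± 0.01, the latter lost with median centring), with a median of -0.21, and the summed level was 415143 to 557955 against 673770 to 708862 in the WT. The part of this shift in the levels of Sox2, Sox6 and Sox9 was not tested. Of 6 epithelial markers, 0 were called in the G2KO comparison, and in G1KO 2 were called lower, Krt14 (-2.09 ± 0.08) and Krt8 (-1.14 ± 0.03), the latter at 1 of its 2 tested probes and lost with median centring. Of 6 haematopoietic markers, 2 were tested in the G2KO comparison. Cd68 had -0.02 ± 0.08, and Ptprc, Adgre1, Csf1r and Tyrobp were at background in both RNAs of that pair. Cd34, bright in all 4 RNAs and the one haematopoietic marker called, had -2.29 ± 0.10 in the RNA labelled G2KO. Pax3, of muscle precursors and neural crest, had -2.85 ± 0.07 there, at 1 of its 2 tested probes, while Myod1, Myf5 and Myog were not tested in that comparison.

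The probes whose log2 ratios were most like those of each SOX gene were found by the root mean square difference over the arrays in which the gene was tested. For Sox2 (2 arrays) these were a probe of Xist, with a difference of 0.19, and Gpm6b, a neuronal membrane protein, with 0.38. Gpm6b had a mean of 5.90 beside 5.59 for Sox2. The spread of Sox2 between arrays was 0.35, and 1 of 25429 probes, that of Xist, lay within it. For Sox6 they were Hoatz (0.13) and Col18a1, a basement membrane collagen (0.17), and 8 of 25426 probes lay within its spread. For Sox9, over 4 arrays, they were a probe without a gene symbol (0.14) and Mpped2 (0.15), which had 1.30 in G1KO and -2.91 in the other comparison, beside 1.32 and -3.08 for Sox9. Of the 24148 probes compared with Sox9, 2 lay within its own spread between arrays. For Sox11, over 4 arrays, they were S100b (0.16) and Kif5c, a kinesin of neurons (0.21), which had 2.60 and 2.96 in G1KO, where Sox11 had 2.69. In the other comparison they had -0.05 and -0.09, where Sox11 had -0.01. Both lay outside the spread of Sox11 between arrays, 0.05, within which 0 of 24144 probes lay. For Sox4, 908 of 24149 probes lay within its spread, the nearest being Dnajc7 and Bzw2 (0.03 and 0.04). For Sox10, 159 of 25429 probes did, the nearest being Ddx19b and Ccdc57. The Sox4 and Sox10 patterns were thus shared by many probes.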

How the data were processed

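RNA of G1KO, G2KO and WT MEFs was amplified from an oligo-dT primer, labelled and hybridised to 4 Agilent 2-colour arrays. The authors quantified spots with Agilent Feature Extraction (10.5.1.1 per the file headers, 9.1 in the submitters' processing notes). The deposited intensity values are the mean spot brightness and local background of each channel, not normalised. The deposited log10 ratios of the scanner and of the authors' series table differed by less than 0.005 on any spot, the table being turned to knockout over WT. Deposited flags of other kinds mark outlying, saturated and dim spots.

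Intensities were corrected with limma 3.58.1 (R 4.3.3; normexp, offset 50). Control spots and spots marked as outliers (114 to 203 per array) were left out, arrays were normalised by loess, spots of a probe were averaged and ratios were turned to knockout over WT. A probe counted as above background on an array where over 0.5 of its spots were. Levels used Aquantile normalisation. The SD between arrays of all tested probes was 0.131 (G1KO) and 0.129 (G2KO), as a root mean square. Precision is limited by the count of arrays, 2 per comparison. Where a genotype was below background on both arrays, a bound sets the mean of the brighter RNA against the higher of the dim reading and the lowest signal well above background on each array, averaged over both arrays. It is open to dye bias.

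Every probe of the 10 genes is given. Of each list up to 4 called genes are named, those with the largest log2 ratio first, and for each SOX gene read the 2 genes most like it. Some uncalled genes of the lists are named for their role. Probes were named through RefSeq (GRCm38.p6), and positions are those of the array design (mm8). Exons were not assigned to probes. The members and lists were chosen with earlier results of these data known. The procedure was tested on simulated data. Alternatives are given in the closing section.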

Additional observations from a re-analysis of the deposited data

Results flagged for a closer look

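Probes of 2 SOX genes had log2 ratios of one sign on both arrays of the G1KO pair and of the other sign on both arrays of the G2KO pair. The difference between the comparisons was not tested, since each rests on 1 culture per genotype. For Sox9 the log2 ratio in G1KO minus that in the RNA labelled G2KO was 3.91 at probe 1 (1.20 and -2.71) and 4.40 at probe 2 (1.32 and -3.08). The WT cultures differed at these probes by 2.20 and 2.53. For Sox4 the difference was 0.66 (0.43 and -0.23), with neither ratio past 2-fold.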

How the results depend on the processing

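Each count was recomputed under 10 alternatives and without each array. A call requires the threshold on each array, so leaving out 1 array can add calls but cannot lose any. The counts without 1 array therefore say nothing on stability. The 7 SOX probes called in the G1KO comparison became 5 with median centring and with the 4-fold threshold, which lost both Sox9 probes, and stayed at 7 without either array. The 5 called in the G2KO comparison became 8 with a normexp offset of 10, with the scanner's log ratio and with the series table, 4 with both genotypes above background and at 4-fold, which lost probe 3 of Sox6, and 5 to 6 without 1 array. The dim probes 1 and 5 of Sox6 and probe 3 of Sox9 made up the gain. Over all probes in the G1KO comparison, 1479 calls became 813 with median centring, 2855 with the scanner's log ratio, 2849 with the series table, 385 at 4-fold and 3341 at 1.5-fold, and 1678 to 1691 without 1 array. In the G2KO comparison 1619 calls became 955, 3396, 3392, 467 and 3715 in the same order, and 1838 to 1847 without 1 array. No called SOX probe changed direction under any of these. Of the 300 values recomputed for single SOX probes, 79 moved by more than the SD between arrays. Many of the 300 could not move that far. A change of filter or threshold leaves the ratio as it is, and leaving out 1 array always shifts it by less than that SD. The 79 thus understate the dependence on the processing. Of 288 list counts 51 moved by over 1.5 times, and of 112 levels 38 moved by more than their SD without normalisation between arrays. No paired analysis was possible because each genotype had 1 culture. Probes near background are limited by their signal, since their ratios depend on the background correction.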

Other observations

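A further probe (chromosome 6, 143786281 to 143786340, minus strand) carries another name on the array and belongs to Sox5 by its RefSeq name. It was above background in both RNAs of the G1KO pair, with a log2 ratio of -0.22 ± 0.03, and in neither RNA of the G2KO pair. Antisense or overlapping transcripts of Sox5 and Sox6 had 1 probe each, and neither was tested in either comparison.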
